A study of Drosophila melanogaster with 107 samples.

Results

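The proteasome is built from a core particle and a regulatory particle, and its subunits were described here in the mushroom body γ neurons of Drosophila melanogaster. Every row whose symbol starts with Prosalpha, Prosbeta, Rpn or Rpt followed by a digit was taken, which gave 47 of 17050 genes. Of these, 32 were expressed: 14 core subunits (7 α and 7 β) and 18 regulatory subunits (12 Rpn and 6 Rpt). The other 15 were paralogs with little expression, each with a mean under 10 normalized reads in every developmental group, and they are described apart. The 47 rows were taken by symbol, and the 15 were set apart by their measured level. The members were chosen with earlier results of these data known.

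The proteasome degrades proteins that carry chains of ubiquitin. The core particle is a barrel of stacked rings, with α subunits outside and β subunits inside. Prosbeta1, Prosbeta2 and Prosbeta5 are the catalytic β subunits, with caspase-like, trypsin-like and chymotrypsin-like activity. The regulatory particle caps the barrel. Its Rpt subunits form a ring of ATPases that unfolds the substrate and opens the core, Rpn10 and Rpn13 bind ubiquitin, and Rpn11 removes the chain from the substrate. γ neurons of the mushroom body prune their larval axons and dendrites early in metamorphosis under control of the steroid hormone ecdysone, and ubiquitin-dependent degradation is known to be needed for that pruning.

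The study profiled γ neurons through normal development and after perturbation of 3 ecdysone pathway factors, in 107 libraries of 1000 sorted DsRed-positive cells each. The MARS-seq protocol reads the 3′ end of polyadenylated RNA and barcodes single molecules. Animals were reared at 25 °C, males and females were taken at random, and adults were 3 to 5 days old. The developmental table holds 64 libraries in 17 groups, and the perturbation table holds 43 libraries in 16 groups.

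All developmental γ neurons and all Control γ neurons carried the strain label y,w/+; UAS-RedStinger/+;71G10/+, so the red nuclear reporter was driven by 71G10. The developmental γ groups were L2 and L3 larvae, 0, 3, 6, 9, 12, 15, 18, 21, 24, 27 and 30 h after puparium formation, and adults. L2, L3, 3 h and 21 h had 3 libraries each and the other stages had 4. The adult comparison groups had 4 libraries each. These were αβ neurons (y,w/w; UAS-RedStinger/+;NP3061-GAL4/+), neurons outside the mushroom body, with the C155-GAL4 driver over y,w and UAS-RedStinger over MB247-GAL80, and astrocyte-like cells. The astrocyte-like cells carried UAS-RedStinger over cyo, with the driver alrm-Gal4 and the transgenes UAS-CD8:GFP and UAS-Dcr2 over the balancer TM6, tb, so the CD8:GFP and Dcr2 transgenes were in this group alone.

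The perturbed γ neurons carried the labels EcR-DN, E75 RNAi and Sox14 RNAi. EcR-DN is by its name a dominant-negative form of the receptor for ecdysone, and the E75 gene is listed as Eip75B. Their strain labels name no driver. The 4 stages of this series were L3, 0, 6 and 12 h. EcR-DN had 2 libraries at 12 h and 3 at every other stage. E75 RNAi had 2 at 0 h, 2 at 12 h and 3 at the others. Sox14 RNAi had 3 at each stage, and Control had 2 at L3, 2 at 6 h and 3 at the others. Every perturbation at a stage was set against the same Control libraries, so those comparisons share them.

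The values were normalized reads, rounded to whole numbers by the authors. The total per library was 1343651 to 2068007 in the developmental table and 1896123 to 2501051 in the perturbation table. These are totals of normalized values, so sequencing depth and counting error cannot be read from them. Proteasome subunits took 0.0995 to 1.06% of a developmental library and 0.428 to 1.53% of a perturbation library. Glial markers, a list of 6 genes, summed to 2 to 179 in developmental γ libraries and 0 to 128 in perturbation libraries, against 32185 to 44151 in astrocyte-like libraries. Mushroom body markers, a list of 7 genes, summed to 8112 to 30779 in developmental γ libraries and to 6690 to 8359 in neurons outside the mushroom body. In the check of the targeted genes, Sox14 had 1154, 1037 and 1093 normalized reads in L3 Sox14 RNAi libraries and 6368 and 7474 in L3 Control libraries, and it was lower at 0 h too (939, 1118 and 996 in Sox14 RNAi, 7347, 7888 and 7100 in Control). It did not pass the test at 6 h (774, 530 and 428 in Sox14 RNAi, 471 and 503 in Control) or at 12 h (378, 182 and 360 in Sox14 RNAi, 247, 382 and 337 in Control), where Control was low as well. Eip75B was not lower in E75 RNAi: it had 18185, 19423 and 14794 at 6 h in E75 RNAi and 6318 and 8483 in Control, and it did not pass the test at L3 or 0 h. EcR itself was lower in EcR-DN at L3 (1249, 1186 and 1208 in EcR-DN, 4007 and 5478 in Control) and higher at 6 h (2610, 2674 and 2148 in EcR-DN, 308 and 347 in Control). The libraries labelled Sox14 RNAi L3 A and Sox14 RNAi 0 h A stood apart from their groups in 2 genes chosen after their values were seen. Eip75B had 33790 in L3 A, against 21940 and 23674 in the other L3 libraries, and 13480 in 0 h A, against 36983 and 29604 in the other 0 h libraries. The transcription factor mamo had 78696 in L3 A, against 22713 and 29434, and 13274 in 0 h A, against 89852 and 64519. Over all genes these libraries were less distinct: 5 of the 6 Sox14 RNAi libraries at L3 and 0 h correlated best with a group other than their own. Summed lists set L3 A and 0 h A apart as well. The 7 mushroom body markers had 18777 in L3 A, against 27278 and 29978, and 25470 in 0 h A, against 21074 and 19625. The 12 listed heat shock genes had 20567 in L3 A, against 9843 and 9652, and 7939 in 0 h A, against 16937 and 15970. Expressed proteasome subunits summed to 26328 in L3 A, against 22661 and 22580, and 19862 in 0 h A, against 27461 and 26597. Whether the labels of L3 A and 0 h A are exchanged was not tested.

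Every one of the 32 expressed subunits had its highest mean at 0 h and its lowest in adults among the 14 γ neuron stages. The 14 core subunits summed to 3844 ± 372 normalized reads at L3 (SD, n = 3), 6098 ± 806 at 0 h (n = 4) and 5049 ± 387 at 3 h (n = 3). The 18 regulatory subunits summed to 6687 ± 668 at L3, 9876 ± 743 at 0 h and 6610 ± 1030 at 3 h. The sums add the reads of different genes, so abundant subunits weigh most in them, and a level in sorted cells cannot separate RNA per cell from a change in which cells were sorted.

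**Figure D1:**
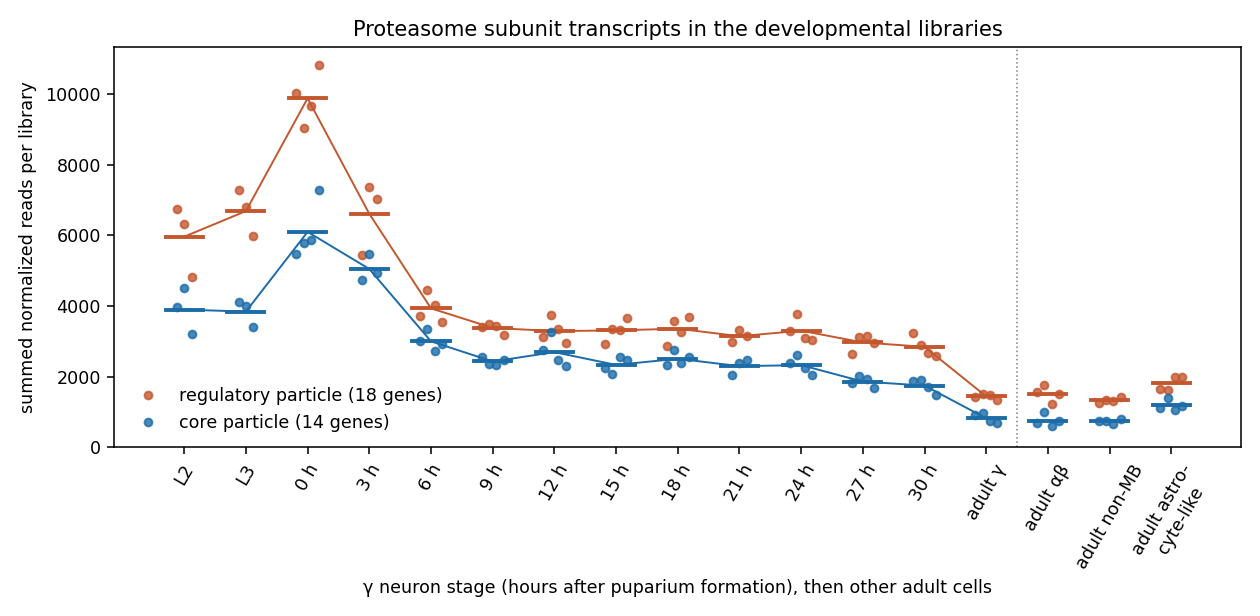
Summed normalized reads of the 14 core subunits and the 18 regulatory subunits (vertical axis) in each library, over the 14 γ neuron stages and the 3 other adult cell types (horizontal axis). Points are libraries and bars are group means. Both sums peak at 0 h, and all 4 libraries at 6 h lie below all 4 at 0 h.

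Core and regulatory subunits both peaked at 0 h, and their shares of that level differed between stages. As a share of its own mean at 0 h, the median core subunit stood at 63.4% in L2, 63% in L3, 86.0% at 3 h, 49.3% at 6 h, 43.3% at 12 h, 28.2% at 30 h and 12.6% in adults. The median regulatory subunit stood at 60.1% in L2, 66.6% in L3, 72.1% at 3 h, 41.1% at 6 h, 33.3% at 12 h, 27.4% at 30 h and 13.4% in adults. Rpn2, a large scaffold subunit of the base of the regulatory particle, was the exception to the rise at 0 h, with 99.0% of its 0 h mean already in L3.

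**Figure D2:**
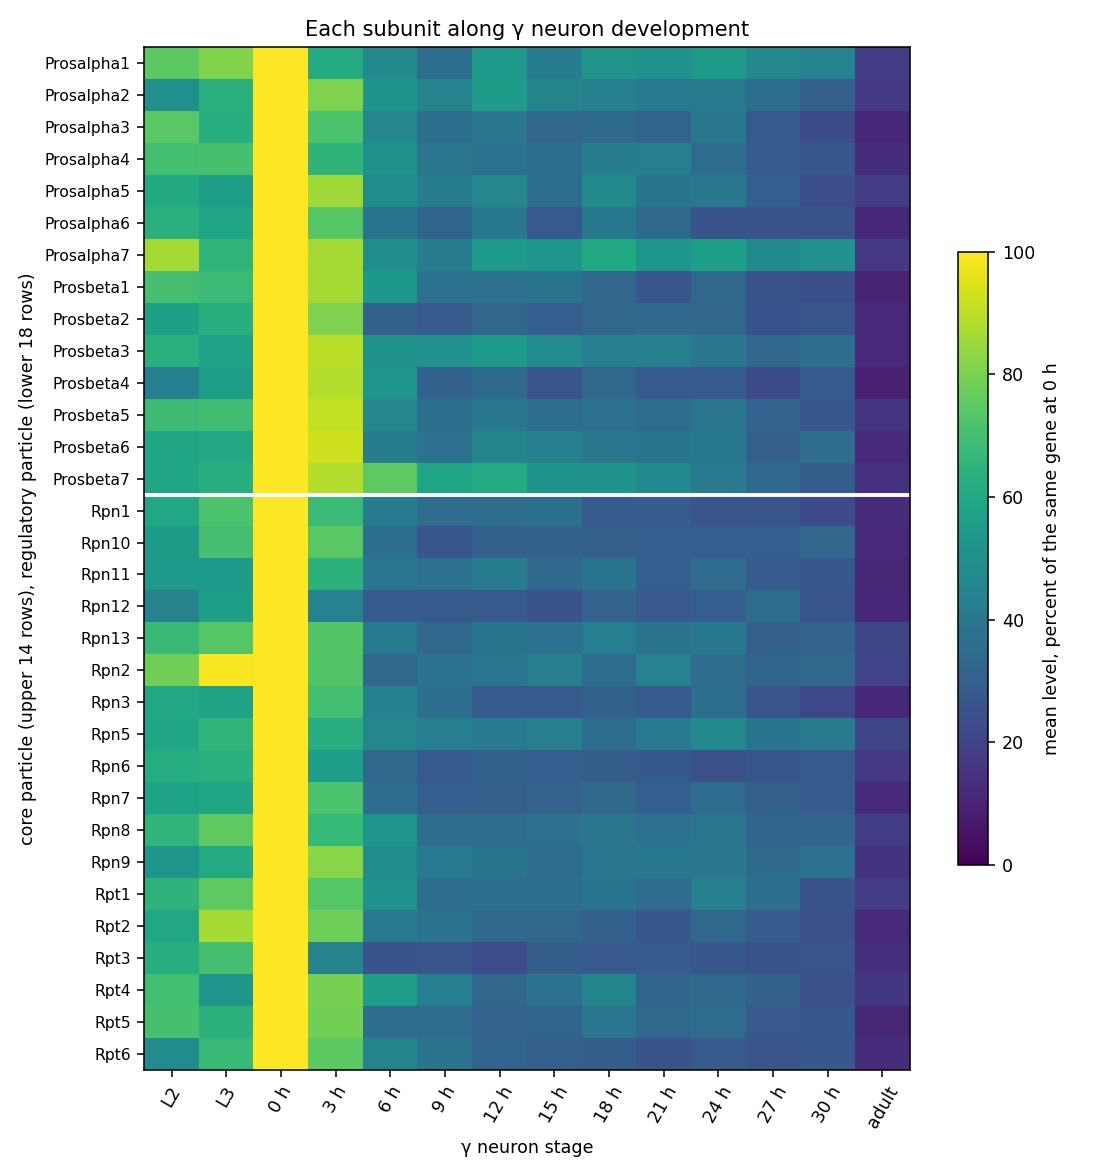
Heat map of the mean of each expressed subunit as a percent of its own mean at 0 h, with 14 γ neuron stages across and 32 subunits down, core subunits in the upper 14 rows and regulatory subunits in the lower 18. Every row is at its highest at 0 h and at its lowest in adults.

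Expression across stages differed for all 32 subunits in the F test over the 14 γ stages (limma, Benjamini-Hochberg adjusted over all genes tested), where 43.5% of all genes tested passed. Rpt3, Prosbeta5 and Prosbeta1 had the strongest evidence of a difference. Rpn6, a scaffold subunit of the lid of the regulatory particle, had the weakest (adjusted p = 0.0379). Each subunit was also correlated with the mean of the other subunits over the 14 stage means, as a description. The correlation was 0.902 for Prosbeta7, the lowest, and 0.991 for Prosbeta5, the highest, with a median of 0.972. Of 8288 other genes, 30 (0.362%) reached the lowest subunit and 0 reached the median. The nearest other genes were CG17985 (0.967), Txl (0.964), mod (0.963) and Eip75B (0.962). Sem1, a small additional subunit of the regulatory lid that the naming rule did not take, stood at 0.958, and TER94, the ATPase that extracts ubiquitinated proteins for the proteasome, at 0.952. All these values share the same libraries, so they count as 1 set of stages.

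At 0 h against L3, 31 of 32 subunits had a positive fold change but only 2 passed the test. Prosbeta3, a non-catalytic ring subunit, had 303, 300, 403 and 365 normalized reads at 0 h, against 193, 225 and 172 at L3 (log2 fold change 0.80 ± 0.25 SE, limma adjusted p = 0.0363). Rpt4, an ATPase of the base, had 442, 398, 461 and 411 at 0 h, against 279, 166 and 228 at L3 (0.96 ± 0.29, adjusted p = 0.0243). For both genes every 0 h library lay above every L3 library. Among all genes tested, 3.12% were higher and 8.53% passed in either direction. Over the 32 the median log2 fold change was 0.62 (core 0.64, regulatory 0.57), beside 0.00 over all genes, and for 25 of 32 every 0 h library lay above every L3 library, as it did for 8.69% of all genes. Unadjusted p-values were under 0.05 for 18 of 32.

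The count of 2 was fragile. It was 0 without the L3 library of replicate 4 or the 0 h library of replicate 3, and 1 without L3 replicate 2, L3 replicate 3 or 0 h replicate 4. It was 10 in a fit of these groups alone and 8 in a fit without the astrocyte-like libraries. Neuronal markers summed to 4729 to 5970 at 0 h, against 8006 to 9653 at L3 (4 of 5 lower). Mushroom body markers summed to 10638 to 16162 at 0 h, against 22056 to 26290 at L3 (6 of 7 lower), and markers of neuroblasts and dividing cells to 17 to 41 at 0 h, against 54 to 111 at L3 (6 of 6 lower). None of these genes was at 0 in both groups, and their part in the result was not tested.

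The catalytic subunits moved the same way at this step without passing it. Prosbeta1 had 511, 452, 422 and 579 normalized reads at 0 h, against 359, 408 and 235 at L3. Prosbeta2 had 438, 525, 398 and 623 at 0 h, against 346, 282 and 308 at L3. Prosbeta5 had 666, 700, 761 and 788 at 0 h, against 535, 572 and 406 at L3. For all 3 catalytic subunits, every 0 h library was above every L3 library. Rpn2 had 780, 486, 231 and 530 at 0 h, against 568, 482 and 455 at L3, so its groups overlapped (-0.11 ± 0.40, adjusted p = 0.955), and its sign turned without 0 h replicate 3 (0.23).

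Between 0 h and 6 h the proteasome genes fell together. At 6 h against 0 h, 28 of 32 were lower and 0 were higher, with 11 of 14 core and 17 of 18 regulatory subunits past the test. Among all genes tested, 5.58% were lower and 11.6% passed in either direction. Core subunits had a median log2 fold change of -1.01 and regulatory subunits one of -1.27, beside 0.09 over all genes. For 30 of 32, every 6 h library lay below every 0 h library, as it did for 8.11% of all genes.

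The largest falls of this step were in Rpt3, Rpn12 and Prosbeta2. Rpt3, an ATPase of the base, had 169, 201, 165 and 256 normalized reads at 6 h, against 693, 678, 715 and 937 at 0 h (-1.94 ± 0.20, adjusted p = 1.51e-11). Its level had already dropped to 336, 352 and 323 at 3 h, and all later libraries stayed below the lowest at 0 h. Rpn12, a lid subunit, had 157, 210, 132 and 152 at 6 h, against 543, 560, 552 and 634 at 0 h (-1.83 ± 0.28, adjusted p = 7.88e-07), and 183, 362 and 216 at 3 h. The 3 h libraries of Rpn12 thus lay below all of those at 0 h, at 44.3% of the 0 h mean. Rpn10, a ubiquitin receptor, had 209, 212, 207 and 153 at 6 h, against 461, 535, 528 and 624 at 0 h (-1.46 ± 0.34, adjusted p = 0.00144). Rpn11, the deubiquitinase, had 229, 197, 223 and 157 at 6 h, against 499, 453, 529 and 566 at 0 h (-1.35 ± 0.33, adjusted p = 0.00222). Neither gene had a 6 h library near its lowest at 0 h.

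The catalytic core subunits were lower at 6 h too, and their 3 h levels were nearer to those at 0 h. Prosbeta2, with trypsin-like activity, had 141, 194, 142 and 139 normalized reads at 6 h, against 438, 525, 398 and 623 at 0 h (-1.67 ± 0.30, adjusted p = 2.06e-05). At 3 h it still had 349, 436 and 418, overlapping the 0 h libraries. Prosbeta5, with chymotrypsin-like activity, had 428, 336, 257 and 331 at 6 h, against 666, 700, 761 and 788 at 0 h (-1.13 ± 0.21, adjusted p = 5.48e-05). Its 3 h libraries, at 599, 789 and 600, overlapped those at 0 h as well. Prosbeta1, with caspase-like activity, had 327, 293, 207 and 224 at 6 h, against 511, 452, 422 and 579 at 0 h (-0.91 ± 0.26, adjusted p = 0.0107), a call lost without 6 h replicate 3. The 3 catalytic subunits thus all fell. The difference between them was not tested.

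The 4 subunits that did not pass were Prosalpha4, Prosbeta4, Prosbeta7 and Rpn6. Prosbeta7, a ring subunit, had 273, 525, 358 and 350 normalized reads at 6 h, against 460, 516, 455 and 574 at 0 h (-0.45 ± 0.27, adjusted p = 0.367), and its groups overlapped through the 6 h library of replicate 2. The other 3 had log2 fold changes of -0.96 (Prosalpha4), -0.92 (Prosbeta4) and -1.56 (Rpn6), with standard errors of 0.40, 0.33 and 0.61.

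By summed reads, the core subunits fell less than the regulatory subunits. The core sum over the regulatory sum was 0.55, 0.64, 0.61 and 0.67 in the 0 h libraries, 0.87, 0.74 and 0.70 at 3 h and 0.81, 0.75, 0.68 and 0.82 at 6 h. Every 3 h and 6 h library was above every 0 h library on this ratio, which carries no test here. L2 libraries had 0.59 to 0.71, which overlapped those at 3 h and 6 h, and L3 libraries had 0.56 to 0.59. From 27 h on the ratio returned to 0.57 to 0.69, then to 0.49 to 0.64 in adults.

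**Figure D3:**
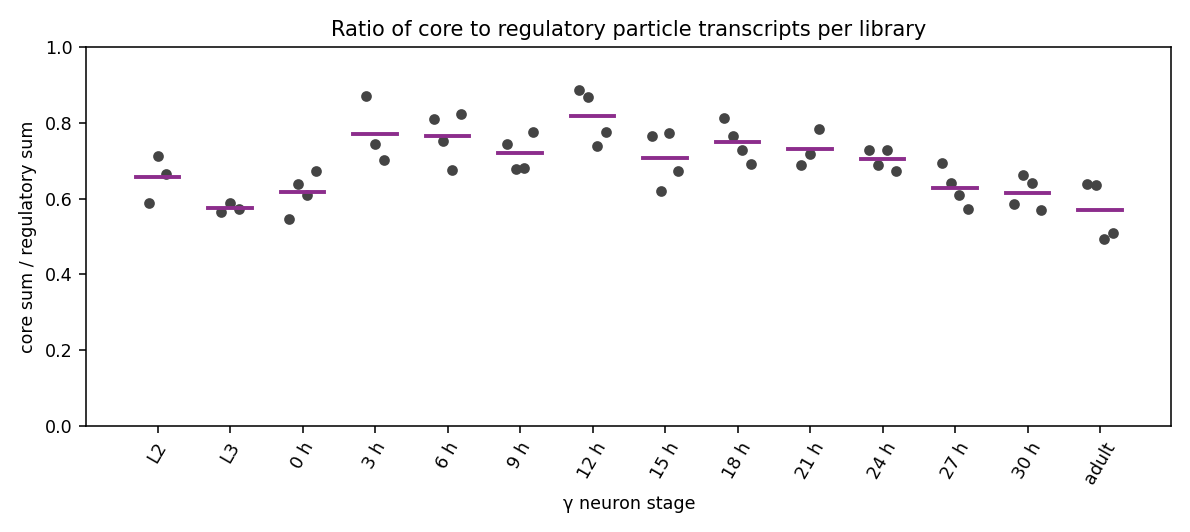
Summed normalized reads of the 14 core subunits divided by those of the 18 regulatory subunits (vertical axis) in each library of the 14 γ neuron stages (horizontal axis). Points are libraries and bars are means. The mean is 0.617 at 0 h, 0.772 at 3 h and 0.766 at 6 h.

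Genes of a heat shock and dissociation list moved the other way at this step. The 12 genes summed to 15587 to 19664 at 6 h, against 8419 to 10199 at 0 h, with 11 of 12 higher at 6 h and none at 0 in both groups. Their part in the result was not tested.

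Between 6 h and 30 h no subunit passed the test in the steps compared. At 18 h against 6 h, 0 of 32 passed (12.4% of all genes did), 1 passed without 6 h replicate 3 or 18 h replicate 2, 2 had an unadjusted p under 0.05, and the median log2 fold change was -0.24, beside 0.04 over all genes. At 30 h against 18 h, 0 passed in limma (1.29% of all genes did), 7 had an unadjusted p under 0.05, all lower, and the median was -0.30, beside -0.04. Between 30 h and the adult the subunits fell again.

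In adults against 30 h, 26 of 32 were lower (13 of 14 core, 13 of 18 regulatory) and 0 were higher, where 9.35% of all genes were lower and 18.6% passed in either direction. The median log2 fold change was -1.06, beside -0.05 over all genes. Prosbeta4 had 31, 48, 19 and 29 normalized reads in adults, against 106, 107, 119 and 76 at 30 h (-1.71 ± 0.33, adjusted p = 7.49e-05). Prosalpha7, an α ring subunit, had 81, 53, 31 and 34 in adults, against 154, 166, 122 and 170 at 30 h (-1.69 ± 0.29, adjusted p = 8.59e-06). Prosbeta3 had 39, 71, 19 and 35 in adults, against 100, 132, 154 and 112 at 30 h (-1.71 ± 0.24). None of these 3 genes had overlapping groups. The core subunit that did not pass was Prosalpha5, at -0.39 ± 0.35, and the regulatory ones were Rpn2, Rpn6, Rpn13, Rpt1 and Rpt4, at -0.56 to -0.87. A list of 5 neuronal markers summed to 14140 to 15959 in adults, against 7264 to 8695 at 30 h, with 4 of 5 higher and none at 0 in both, and its part in the result was not tested.

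Across the whole span, all 32 subunits were lower in adults than in L3 larvae, where 10.6% of all genes were lower and 20% passed in either direction. The median log2 fold change was -2.35, beside -0.01 over all genes, and no adult library reached the lowest L3 library for any of the 32 (14.8% of all genes behaved so). Rpt2, an ATPase of the base, had 64, 66, 63 and 39 normalized reads in adults, against 481, 483 and 294 in L3 (-2.83 ± 0.32, adjusted p = 2.77e-10). Prosbeta1 had 45, 48, 49 and 43 in adults, against 359, 408 and 235 in L3 (-2.79 ± 0.28, adjusted p = 7.87e-12). Prosbeta4 had 31, 48, 19 and 29 in adults, against 190, 238 and 157 in L3 (-2.63 ± 0.36, adjusted p = 4.70e-08). All 3 genes stood far below their larval values, and the smallest of the 32 differences was that of Prosalpha5, at -1.65. The core sum of adults was 0.214 and the regulatory sum 0.216 of the L3 sum.

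Few subunits separated adult γ neurons from the other adult neurons. Against αβ neurons, 1 of 32 was higher and 0 were lower, where 3.97% of all genes were higher and 7.51% passed in either direction. This was Prosalpha3, with 97, 53, 85 and 78 normalized reads in γ neurons, against 39, 58, 43 and 33 in αβ neurons (0.84 ± 0.25, limma adjusted p = 0.0210). Its groups overlapped, and the count was 0 without any one of γ replicates 1, 3 and 4 or αβ replicates 1 and 4, and 2 without γ replicate 2 or αβ replicate 2. Against neurons outside the mushroom body, 0 of 32 passed in limma (14.5% of all genes did), 1 passed without γ replicate 4, and 2 had an unadjusted p under 0.05.

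Astrocyte-like cells were higher than adult neurons for part of the core particle. Against the mean of the 3 adult neuron groups, 12 subunits were higher and 1 was lower, with 8 of 14 core subunits and 4 of 18 regulatory subunits higher. In this comparison 60% of all genes passed, 22.6% higher and 37.4% lower, and the members' counts have to be read against these shares. The median log2 fold change was 0.59 over core and 0.03 over regulatory subunits, beside -0.45 over all genes. Prosbeta6, a ring subunit, had 67, 69, 114 and 59 normalized reads in astrocyte-like cells. It had 49, 28, 27 and 16 in γ, 33, 34, 10 and 20 in αβ and 49, 35, 49 and 34 in other neurons (1.32 ± 0.25, adjusted p = 9.48e-06), so every astrocyte-like library was above every neuron library. Prosalpha7 had 128, 195, 72 and 82 in astrocyte-like cells, against a highest neuron library of 81, so its groups overlapped (1.27 ± 0.24, adjusted p = 7.13e-06). Prosbeta4 was the third highest, at 1.17 ± 0.27 (adjusted p = 0.000219).

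The lower gene was Rpn6, at 139, 0, 57 and 219 normalized reads in astrocyte-like cells, against 104 to 214 in all neuron libraries (-1.95 ± 0.50, adjusted p = 0.000650). It rested on the astrocyte-like library of replicate 2, where the gene is listed at 0: without it the log2 fold change was -0.21 and the call was lost. In a fit of the adult groups alone, 7 of 32 passed. The astrocyte-like libraries were less alike than the neuron libraries: their mean correlations with their own group were 0.720 to 0.750, against 0.873 to 0.930 in the adult neuron groups. They had 6523 genes above 0 on average, against 7491 in γ, 7418 in αβ and 8138 in other neurons. The heat shock and dissociation list summed to 951 to 1602 in astrocyte-like cells, against 4801 to 7386 in adult γ neurons (12 of 12 lower), and its part was not tested.

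The Control γ neurons of the perturbation table, separate libraries of the same strain, also had lower proteasome levels at 6 h than at 0 h. At 6 h against 0 h, 25 of 32 were lower (8 of 14 core, 17 of 18 regulatory) and 0 were higher, where 4.69% of all genes were lower and 9.51% passed in either direction. Core subunits had a median log2 fold change of -0.91 and regulatory subunits one of -1.26, beside 0.11 over all genes. Rpt3 had 443 and 310 normalized reads in Control at 6 h, against 1235, 1233 and 1238 at 0 h (-1.73 ± 0.24, adjusted p = 7.57e-07). Rpn2 had 508 and 344 at 6 h, against 1222, 1819 and 1189 at 0 h (-1.72 ± 0.29, adjusted p = 2.61e-05). Rpn5 had 179 and 252 at 6 h, against 658, 663 and 568 at 0 h (-1.56 ± 0.28, adjusted p = 9.13e-05). In each of these 3 genes both 6 h libraries were below all 3 at 0 h. The catalytic Prosbeta2 and Prosbeta5 fell by 1.27 and 1.01 on the log2 scale, and the call of Prosbeta5 was lost without Control 6 h replicate C.

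With 2 Control libraries at 6 h, the count was 16 without either of them, and 8 in a fit of these groups alone. The heat shock and dissociation list summed to 21901 to 24798 at 6 h, against 9815 to 12254 at 0 h in Control, with 10 of 12 genes higher, and its part was not tested. At 0 h against L3 in Control, 0 of 32 passed in limma (1.54% of all genes did). There, 8 had an unadjusted p under 0.05, all higher, and all 32 fold changes were positive, with a median log2 fold change of 0.37 beside -0.04 over all genes.

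**Figure D4:**
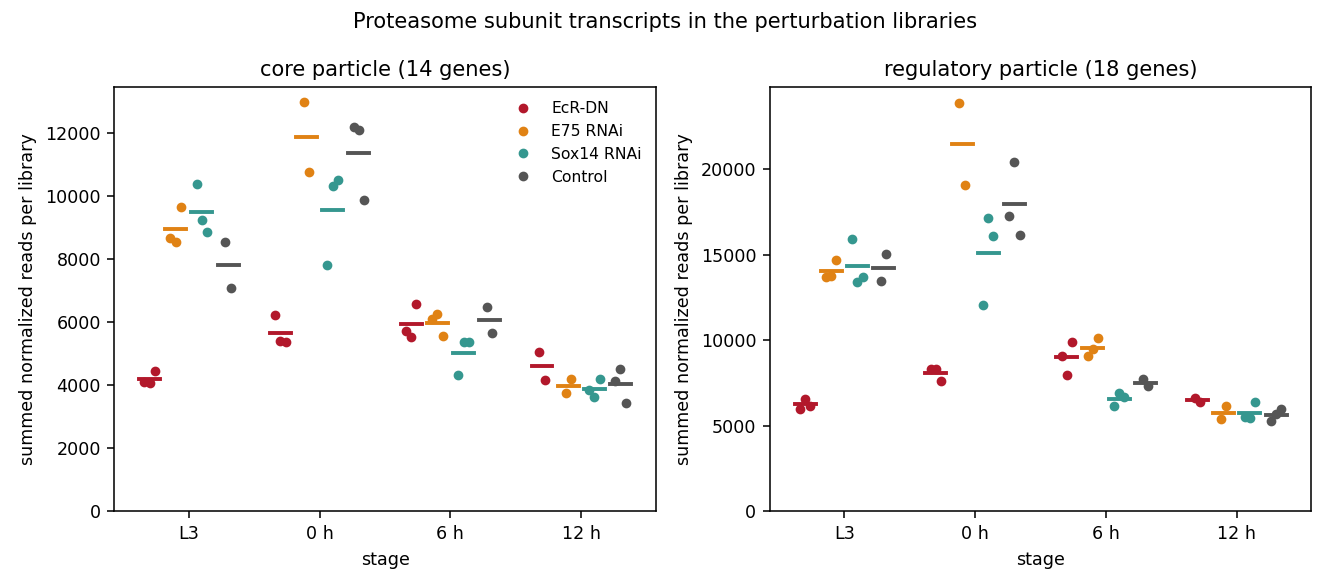
Summed normalized reads of the 14 core and the 18 regulatory subunits (vertical axes) in each library of EcR-DN, E75 RNAi, Sox14 RNAi and Control (left to right within each stage) at L3, 0, 6 and 12 h. Points are libraries and bars are means. EcR-DN lies below Control at L3 and 0 h and not at 6 h, where its 3 regulatory sums are above both Control sums.

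EcR-DN γ neurons had lower proteasome expression than Control at L3 and at 0 h. At L3, 24 of 32 subunits were lower in EcR-DN (7 of 14 core, 17 of 18 regulatory) and 0 were higher, where 4.4% of all genes were lower and 8.24% passed in either direction. The core sums were 4103, 4066 and 4454 in EcR-DN, against 8540 and 7085 in Control. The regulatory sums were 6001, 6590 and 6173 in EcR-DN, against 13457 and 15037 in Control. The sums of EcR-DN were 0.539 (core) and 0.439 (regulatory) of Control, with no overlap.

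The largest L3 change was in the lid subunit Rpn3, with 176, 330 and 279 normalized reads in EcR-DN, against 936 and 932 in Control (-1.88 ± 0.26, adjusted p = 1.05e-06). The ATPase Rpt6 had 216, 360 and 288 in EcR-DN, against 733 and 922 in Control (-1.54 ± 0.27, adjusted p = 6.56e-05). Rpn10 had 330, 210 and 189 in EcR-DN, against 697 and 661 in Control (-1.52 ± 0.29, adjusted p = 0.000210). None of these 3 genes overlapped between the groups, and for 31 of 32 subunits every EcR-DN library was below every Control library, as for 15.7% of all genes.

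The median log2 fold change at L3 was -0.85 over core and -1.13 over regulatory subunits, beside 0.05 over all genes. The exception to the separation was Prosbeta3 (-0.43), whose groups overlapped. Without the Control L3 library of replicate C the count was 12, and in a fit of these groups alone it was 13.

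At 0 h, 30 of 32 subunits were lower in EcR-DN than in Control (12 of 14 core and all 18 regulatory) and 0 were higher, where 6.41% of all genes were lower and 16.8% passed in either direction. The median subunit of the core stood at 53.8% of Control and that of the regulatory particle at 43.4%. The range ran from 36.5% for Rpt4 to 69.4% for Prosalpha1. The median log2 fold change was -0.88 over core and -1.21 over regulatory subunits, beside 0.20 over all genes.

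Rpt4 had 398, 377 and 303 normalized reads in EcR-DN at 0 h, against 676, 1387 and 892 in Control (-1.40 ± 0.24, adjusted p = 3.12e-05). Prosalpha5 had 450, 480 and 574 in EcR-DN, against 1521, 1418 and 1014 in Control (-1.38 ± 0.24, adjusted p = 3.43e-05). Rpn10 had 410, 288 and 290 in EcR-DN, against 785, 1185 and 659 in Control (-1.38 ± 0.26, adjusted p = 8.37e-05). In all 3 genes the highest EcR-DN library was below the lowest Control library.

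The catalytic subunits were lower at 0 h as well. Prosbeta5 had 863, 703 and 613 normalized reads in EcR-DN, against 1494, 1524 and 1555 in Control (-1.08 ± 0.22, adjusted p = 0.000297). Prosbeta2 fell by 1.09 ± 0.25 (adjusted p = 0.00110) and Prosbeta1 by 0.87 ± 0.23 (adjusted p = 0.00542) on the log2 scale, the call of Prosbeta1 being lost without Control 0 h replicate B. The deubiquitinase Rpn11 fell by 1.02 ± 0.21 (adjusted p = 0.000436). Prosbeta4 (-0.62 ± 0.32, adjusted p = 0.200) and Prosalpha1 (-0.51 ± 0.64), whose groups overlapped, did not pass.

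Marker lists differed between EcR-DN and Control at these stages. Neuronal markers, a list of 5 genes, summed to 13878 to 14179 in EcR-DN and 8240 to 9575 in Control at L3, and to 12532 to 17640 in EcR-DN and 5514 to 6344 in Control at 0 h, with all 5 higher at both stages. Mushroom body markers summed to 27692 to 30349 in EcR-DN and 27297 to 29147 in Control at L3 (4 of 7 higher), and to 28823 to 33223 in EcR-DN and 18819 to 21343 in Control at 0 h (6 of 7 higher). Markers of neuroblasts and dividing cells, a list of 6 genes, summed to 154 to 309 in EcR-DN and 27 to 101 in Control at L3 (4 of 6 higher), and to 109 to 213 in EcR-DN and 17 to 56 in Control at 0 h (6 of 6 higher). A list of 4 γ neuron markers, EcR among them, was lower at L3. It summed to 6374 to 6761 in EcR-DN and 10952 to 12158 in Control (3 of 4 lower). At 0 h this list overlapped, with 8588 to 9664 in EcR-DN and 8727 to 10694 in Control (3 of 4 higher). The heat shock and dissociation list summed to 5776 to 8362 in EcR-DN and to 9953 in each Control library at L3. At 0 h it summed to 4896 to 9543 in EcR-DN and 9815 to 12254 in Control. Of its 12 genes, 7 were higher and 5 lower in EcR-DN at both stages. No gene of these lists was at 0 in both groups, and their part in the result was not tested.

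At 6 h the proteasome sums of EcR-DN no longer lay below those of Control. The core sums were 5717, 5529 and 6577 in EcR-DN, against 6467 and 5653 in Control. The regulatory sums were 9090, 7996 and 9922 in EcR-DN, against 7720 and 7336 in Control. Core sums overlapped and all regulatory sums of EcR-DN were the higher ones. In limma, 1 of 32 subunits was higher and 0 were lower, where 4.86% of all genes were higher and 6.85% passed in either direction. It was Rpt3, with 784, 639 and 483 normalized reads in EcR-DN, against 443 and 310 in Control (0.75 ± 0.24, limma adjusted p = 0.0477). Its groups did not overlap. That call was lost without Control 6 h replicate C, EcR-DN 6 h replicate A or EcR-DN 6 h replicate B, and it was also lost with the replicate block (0 of 32). At 12 h, 0 of 32 passed in limma (4.82% of all genes did, and 1 subunit passed without Control 12 h replicate A) and 7 had an unadjusted p under 0.05, all higher, with a median log2 fold change of 0.23 beside 0.04 over all genes.

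The drop between 0 h and 6 h that Control neurons showed was absent from the EcR-DN values. As a share of its own 0 h mean, the median subunit stood at 107% at 6 h in EcR-DN and at 44.9% in Control. In EcR-DN the values ran from 84.0% for Prosalpha6 to 149% for Rpn10. The highest stage in EcR-DN was 6 h for 20 subunits (5 core, 15 regulatory), 0 h for 11 and 12 h for 1, Prosalpha2, while in Control it was 0 h for all 32. The EcR-DN sums were lower at 12 h than at 6 h. Core sums were 5050 and 4152 at 12 h, against 5717, 5529 and 6577 at 6 h. Regulatory sums were 6642 and 6408 at 12 h, against 9090, 7996 and 9922 at 6 h. In Control, regulatory sums were 5300, 5683 and 6004 at 12 h, against 7720 and 7336 at 6 h. The step from 6 h to 12 h was not tested.

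The test of the difference between these steps took the change from 0 h to 6 h in EcR-DN minus that in Control. It passed for 18 of 32 (5 core, 13 regulatory), all positive, so the fall of Control was smaller or absent in EcR-DN. Among all genes tested, 2.74% passed in that direction and 4.82% in either. The median difference was 1.08 over core and 1.39 over regulatory subunits on the log2 scale, beside -0.21 over all genes. Without Control 6 h replicate C the count was 8 of 32, and with robust variances it was 11. The same libraries enter the comparisons of EcR-DN with Control at 0 h and 6 h, so these results are not separate.

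Rpn10 had the largest difference: it had 530, 384 and 559 normalized reads at 6 h and 410, 288 and 290 at 0 h in EcR-DN, against 308 and 335 at 6 h and 785, 1185 and 659 at 0 h in Control (1.98 ± 0.38, adjusted p = 0.000593). Rpt3 had 784, 639 and 483 at 6 h and 532, 589 and 495 at 0 h in EcR-DN, against 443 and 310 at 6 h and 1235, 1233 and 1238 at 0 h in Control (1.95 ± 0.32, adjusted p = 4.99e-05). Rpn5, a lid subunit, had 236, 377 and 320 at 6 h and 302, 205 and 239 at 0 h in EcR-DN, against 179 and 252 at 6 h and 658, 663 and 568 at 0 h in Control (1.87 ± 0.38, adjusted p = 0.000910). In each of these 3 genes the libraries of the stages overlapped in EcR-DN and did not overlap in Control. The catalytic subunits Prosbeta1 (1.26 ± 0.34, adjusted p = 0.0218), Prosbeta5 (1.21 ± 0.33, adjusted p = 0.0219) and Prosbeta2 (1.23 ± 0.37, adjusted p = 0.0420) passed too. All 3 lost the call without Control 6 h replicate C. Prosbeta1 also lost it without Control 0 h replicate B, and Prosbeta5 without EcR-DN 0 h replicate C or EcR-DN 6 h replicate A. Prosbeta2 lost it without any of Control 0 h A and B, Control 6 h A, EcR-DN 0 h B and C and EcR-DN 6 h B and C. Prosbeta7 had the smallest difference, 0.25, and it also changed least between 0 h and 6 h in normal development.

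The heat shock and dissociation list summed to 9894 to 10678 in EcR-DN at 6 h and 21901 to 24798 in Control at 6 h, with 5 of 12 genes higher and 7 lower. At 6 h neuronal markers summed to 9792 to 13414 in EcR-DN and 5871 to 6943 in Control (5 of 5 higher). Mushroom body markers summed to 23617 to 27266 and 13212 to 16719 (5 of 7 higher), and γ neuron markers to 8139 to 10209 and 5599 to 6355 (3 of 4 higher). Markers of neuroblasts and dividing cells summed to 4 to 21 and 33 to 45 (5 of 6 lower). The part of these lists was not tested. The step from L3 to 0 h did not differ between EcR-DN and Control past the test: 0 of 32 passed in limma (0.416% of all genes did) and 0 had an unadjusted p under 0.05.

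**Figure D5:**
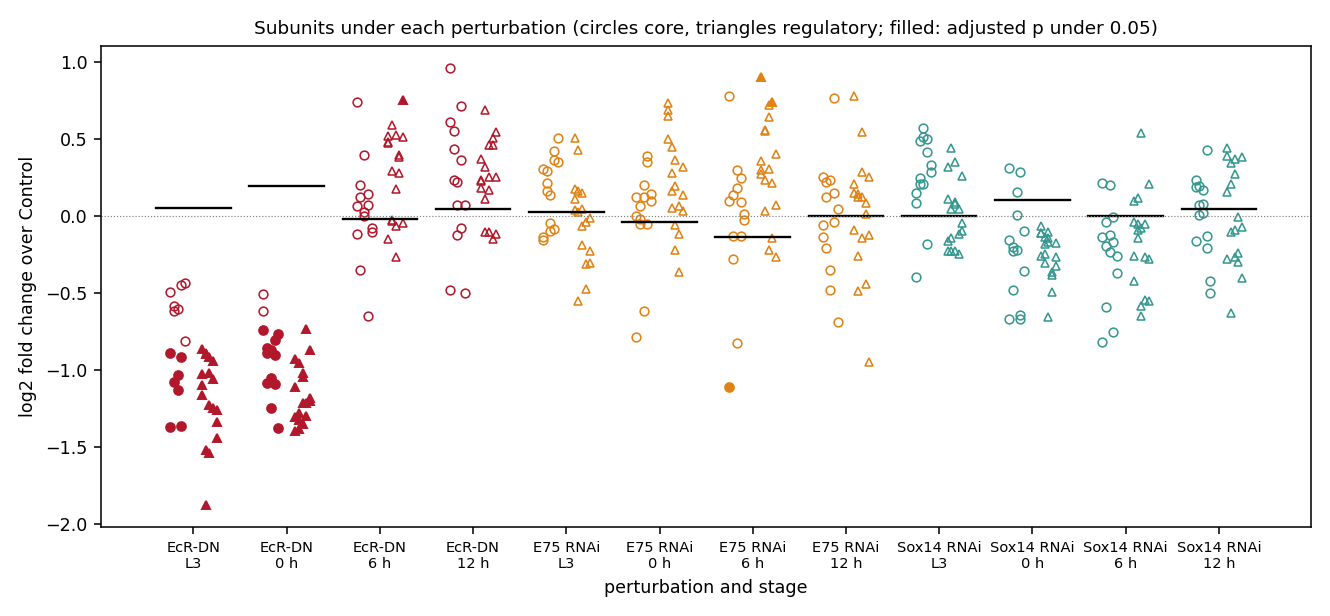
Log2 fold change over Control (vertical axis) of each of the 32 subunits in EcR-DN, E75 RNAi and Sox14 RNAi at L3, 0, 6 and 12 h (horizontal axis). Circles are core subunits, triangles are regulatory subunits, filled symbols have an adjusted p under 0.05 and the black line is the median of all genes tested. EcR-DN lies below 0 at L3 and 0 h, with 24 and 30 filled symbols, and around 0 at 6 and 12 h.

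Few subunits passed the test in E75 RNAi γ neurons. The median subunit stood at 103% of Control at L3, 108% at 0 h, 115% at 6 h and 103% at 12 h. No subunit passed in limma at L3 (3.2% of all genes did), 0 h (6.75%) or 12 h (4.42%), and 1, 5 and 4 had an unadjusted p under 0.05 at those stages. At 6 h, 2 were higher and 1 was lower, where 4.75% of all genes were higher, 3.64% lower and 8.39% either. These counts were near the shares over all genes. Rpn2 had 788, 831 and 733 normalized reads in E75 RNAi, against 508 and 344 in Control (0.90 ± 0.29, adjusted p = 0.0398). Rpt2 had 855, 559 and 824 in E75 RNAi, against 421 and 456 in Control (0.74 ± 0.24, adjusted p = 0.0464). Prosbeta4 had 143, 153 and 131 in E75 RNAi, against 340 and 279 in Control (-1.11 ± 0.35, adjusted p = 0.0410).

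The E75 RNAi and Control libraries did not overlap for any of these 3 genes. The count of 3 became 0 or 1 when any of the 5 libraries at 6 h was left out: 1 without Control replicate A or E75 RNAi replicate B, and 0 without Control replicate C or E75 RNAi replicates A or C. The median subunit of E75 RNAi stood at 47% of its 0 h mean at 6 h, and the difference of this step from Control passed for 0 of 32 in limma (4.07% of all genes passed, and 1 subunit had an unadjusted p under 0.05). Between L3 and 0 h it was also 0 of 32 (0.497% of all genes passed, and 1 subunit had an unadjusted p under 0.05). At 12 h the count was 2 without Control replicate A, 1 without Control replicate C or E75 RNAi replicate C, and 1 without the Sox14 RNAi libraries that stood apart. At 0 h it was 2 without E75 RNAi replicate B. The γ neuron marker list summed to 3107 to 4091 in E75 RNAi at 6 h, against 5599 to 6355 in Control, and its part was not tested.

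Sox14 RNAi γ neurons had no subunit past the test at any of the 4 stages in limma. The median subunit stood at 107% of Control at L3, 86.5% at 0 h, 90.0% at 6 h and 99.9% at 12 h. Without the libraries labelled L3 A and 0 h A it stood at 104% at L3 and 94.1% at 0 h. At L3 1 subunit had an unadjusted p under 0.05 (1.74% of all genes passed the adjusted test), at 0 h 5 (8.55%), at 6 h 6 (5.98%) and at 12 h 2 (1.61%). The steps from L3 to 0 h and from 0 h to 6 h differed from those of Control for 0 of 32 (0.104% and 2.62% of all genes), with 3 and 0 at an unadjusted p under 0.05. The count was 1 at 0 h without Sox14 RNAi replicate B or C and 1 at 6 h without replicate C. At 0 h the core sums were 7810, 10323 and 10518 in Sox14 RNAi, against 12189, 12077 and 9858 in Control. The regulatory sums at 0 h were 12052, 17138 and 16079 in Sox14 RNAi, against 17267, 20461 and 16161 in Control. Both sums overlapped between Sox14 RNAi and Control, and the lowest library was the one labelled 0 h A. The highest stage in Sox14 RNAi was 0 h for 21 subunits and L3 for 11. Without the libraries labelled L3 A and 0 h A it was 0 h for 29 and L3 for 3, and the count past the test was 0 at both stages and for both steps. At 6 h the γ neuron marker list summed to 1709 to 1889 in Sox14 RNAi, against 5599 to 6355 in Control. Its part was not tested.

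The perturbations were also compared with each other, without Control. At 0 h, a comparison added after the data were seen, 28 of 32 subunits were lower in EcR-DN than in E75 RNAi and 0 were higher, where 6.1% of all genes were lower and 16.9% passed in either direction. Rpn2 had 475, 657 and 556 normalized reads in EcR-DN, against 3096 and 1706 in E75 RNAi (-2.04 ± 0.29, adjusted p = 1.21e-06). Rpn1, a scaffold subunit that docks ubiquitin shuttle factors, had 237, 299 and 447 in EcR-DN, against 1480 and 824 in E75 RNAi (-1.80 ± 0.29). Rpt4 fell by 1.90 ± 0.27 on the log2 scale. Both E75 RNAi libraries were above all EcR-DN libraries for Rpn1 and Rpn2, replicate A by most, and without replicate A 17 of 32 passed. In a fit of these groups alone it was 14. In the same way, 20 of 32 were lower in EcR-DN than in Sox14 RNAi at 0 h, where 2.65% of all genes were lower and 9.08% passed in either direction, and without Sox14 RNAi 0 h replicate B it was 13. It was 3 in a fit of these groups alone and 23 without the libraries labelled L3 A and 0 h A. Rpt4 (-1.29 ± 0.24), Rpn10 (-1.25 ± 0.26) and Rpn5 (-1.24 ± 0.25) had the largest falls.

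At 6 h fewer subunits separated the perturbations from each other. Against E75 RNAi, EcR-DN was higher for Prosbeta4 (0.99 ± 0.32), Prosbeta6 (0.85 ± 0.27) and Rpn13 (0.78 ± 0.26) and lower for Prosbeta7 (-0.74 ± 0.24). These were 4 of 32, where 7.54% of all genes were higher, 6.04% lower and 13.6% either, so the count was near the share over all genes. The count was 0 without E75 RNAi replicate A, 1 without E75 RNAi replicates B or C or EcR-DN replicate C, and 2 without EcR-DN replicates A or B. Against Sox14 RNAi, EcR-DN was higher for Rpn2, Rpn8, Rpn13 and Rpt2, where 5.87% of all genes were higher and 8.71% passed in either direction. The ubiquitin receptor Rpn13 had 611, 445 and 601 normalized reads in EcR-DN, against 213, 279 and 296 in Sox14 RNAi (1.07 ± 0.26, adjusted p = 0.00452), with no overlap. Rpn2 (0.94 ± 0.26, adjusted p = 0.0122) and Rpt2 (0.93 ± 0.22, adjusted p = 0.00260) came next.

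E75 RNAi against Sox14 RNAi at 6 h had 6 subunits higher and 0 lower, where 8.92% of all genes were higher and 16.9% passed in either direction. Rpt2 had 855, 559 and 824 normalized reads in E75 RNAi, against 286, 284 and 331 in Sox14 RNAi (1.29 ± 0.22, adjusted p = 1.52e-05). Rpn2 had 788, 831 and 733 in E75 RNAi, against 361, 300 and 280 in Sox14 RNAi (1.33 ± 0.26, adjusted p = 0.000145). Rpt6 had 622, 760 and 899 in E75 RNAi, against 365, 564 and 327 in Sox14 RNAi (0.88 ± 0.24, adjusted p = 0.00681). None of these 3 genes overlapped, and Prosbeta7, Rpt1 and Rpn3 were the others past the test. Without E75 RNAi replicate C or Sox14 RNAi replicate C it was 3.

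A list of 30 further genes of the ubiquitin and proteasome pathway, of which 27 were tested, was set beside the subunits. At 6 h against 0 h in normal development, 6 of 27 were lower and 1 was higher, where 5.58% of all genes were lower and 11.6% passed in either direction. Pomp, the chaperone that helps assemble the core particle, had 431, 450, 380 and 518 normalized reads at 6 h, against 1271, 1191, 978 and 1443 at 0 h (-1.45 ± 0.20). Ubi-p5E, a polyubiquitin gene, had 1125, 677, 836 and 810 at 6 h, against 2978, 2676, 3175 and 2557 at 0 h (-1.74). The CNC family transcription factor cnc, whose mammalian relative activates proteasome genes, had 275, 169, 166 and 174 at 6 h, against 1325, 1185, 784 and 621 at 0 h (-2.28 ± 0.25). For all 3 genes the stages did not overlap. Usp14, Sem1 and TER94 also fell, TER94 not without 0 h replicate 1 or 6 h replicate 2. Plap, a ubiquitin-binding cofactor, was higher (1.08), a call lost without 0 h replicate 1 or 3 or 6 h replicate 1, 3 or 4. Unlike the subunits, cnc was lower at 0 h than in L3, with 1325, 1185, 784 and 621 at 0 h against 2162, 2014 and 2166 at L3 (-1.18 ± 0.27). In that comparison casp (1.26 ± 0.29), Ubi-p5E (0.77 ± 0.20) and the polyubiquitin gene Ubi-p63E (0.65 ± 0.20) were higher past the test. The other listed genes did not pass. Among all genes tested, 3.12% were higher at 0 h than in L3 and 8.53% passed in either direction.

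In EcR-DN, 10 of 27 pathway genes were lower than in Control at 0 h and 0 were higher, where 6.41% of all genes were lower and 16.8% passed in either direction. At L3, 7 were lower and 0 higher, where 4.4% were lower and 8.24% passed in either direction. Pomp had 1083, 1130 and 1131 normalized reads in EcR-DN at 0 h, against 2450, 2262 and 1861 in Control (-0.97 ± 0.19). Usp14, a deubiquitinase that docks on the regulatory particle, had 175, 183 and 176 in EcR-DN, against 506, 563 and 406 in Control (-1.45). Ubi-p5E had 2210, 1970 and 1661 in EcR-DN, against 5789, 5913 and 5802 in Control (-1.59 ± 0.19). No library of these 3 genes overlapped between EcR-DN and Control.

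At 6 h the pathway gene past the test in EcR-DN was cnc, with 1684, 1597 and 1542 normalized reads in EcR-DN, against 140 and 188 in Control (3.30 ± 0.25, adjusted p = 2.33e-13). Its EcR-DN values at 0 h, 1457, 1412 and 1572, overlapped the 0 h Control values of 1019, 1446 and 1626. The difference of the 0 h to 6 h step between EcR-DN and Control passed for 6 of 27, all positive, where 2.74% of all genes passed in that direction and 4.82% in either. In these 6 genes the fall of Control was smaller or absent in EcR-DN. These were cnc (3.16), Usp14 (2.50), Ubi-p5E (2.04), Sem1 (1.71), TER94 (1.40) and Pomp (1.32). Without Control 6 h replicate C, TER94 and Sem1 lost the call, and Sem1 lost it without any of 6 other libraries too.

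Of the 15 paralogs with little expression, 8 were listed at 0 in every developmental library and 8 in every perturbation library. Rpn13R, named as a relative of the ubiquitin receptor Rpn13, was the most abundant, with a largest developmental group mean of 9.75 normalized reads and a value above 0 in 60 of 64 developmental libraries. In the perturbation table it was above 0 in 29 of 43 libraries. There it had 17 and 10 at 0 h in E75 RNAi and 4, 0 and 0 at 0 h in Control, and 0, 2 and 0 at 6 h in E75 RNAi and 23 and 3 at 6 h in Control. Its change from 0 h to 6 h differed between E75 RNAi and Control in limma (adjusted p = 0.0461), a call lost without any of 7 libraries, and no order is read from values this low. The largest developmental group means of Rpt6R, Rpt3R and Prosbeta2R1 were 6.0, 4.3 and 2.0.

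Some rows carry a limit of their own. The row of Prosalpha1 holds the same values in every library as that of CG30382, so the 2 genes cannot be told apart here. Of the 32, 13 share exon bases with a gene on the opposite strand, and the labels do not say whether the counting used strand: Prosalpha1, Prosalpha2, Prosbeta1 to Prosbeta5, Rpn7, Rpn9, Rpt2, Rpt4, Rpt5 and Rpt6.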

How the data were processed

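The values are deposited scores: normalized reads per gene, rounded to whole numbers by the authors, in 1 table of developmental libraries and 1 of perturbation libraries. Per the submitters' processing notes, HISAT 0.1.5, HOMER and bcl2fastq were among the tools, and the normalization method, genome build and strand setting are not given in the sources used here. Raw counts are therefore not known. The tables were tested apart, with limma 3.58.1 (trend) in R 4.3.3 on log2(value + 1), so a fold change understates the change of low genes. Genes were kept with at least 10 in at least 3 developmental or 2 perturbation libraries (8320 and 8656 genes), in 1 fit over all groups of a table, with Benjamini-Hochberg adjustment over all genes of it and a threshold of 0.05. A difference of steps is the interaction contrast of the same fit. The fit was run on simulated data in which genes varied independently, so subunits that move together were not covered. Libraries of a group are not said to come from separate dissections, so p-values set a difference against a spread between libraries that may be technical. That spread was pooled over all groups of a table and moderated across genes. For a group of 2 libraries most of it comes from other groups.

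The members, the pathway list and the marker lists were chosen with earlier results of these data known. Of the members past the test in a comparison, up to 3 in each direction are named by size of change, with members that moved against the majority. The catalytic and ubiquitin-handling subunits are named for their roles. Alternatives tried were a pseudocount of 8, no filter, quantile normalization, robust variances without trend, the replicate number as a block, fits of the compared groups alone, and leaving out each library. The Sox14 RNAi libraries that stand apart, and the astrocyte-like libraries, were also left out. Sequences of promoters and proteins were not used here. Figures were drawn with matplotlib 3.10.9 in Python 3.11.15.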

Additional observations from a re-analysis of the deposited data

Results flagged for a closer look

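The change from 0 h to 6 h differed between EcR-DN and Control γ neurons by the test of the difference itself (limma interaction contrast) for 18 of 32 proteasome subunits. In all of these the fall seen in Control was smaller or absent in EcR-DN. The contrast uses the same libraries as the comparisons of EcR-DN with Control at 0 h and 6 h, so it is not a separate result. The regulatory sums were 9090, 7996 and 9922 normalized reads at 6 h and 8320, 8303 and 7641 at 0 h in EcR-DN, against 7720 and 7336 at 6 h and 17267, 20461 and 16161 at 0 h in Control. The sums at 6 h over those at 0 h were 1.05 (core) and 1.11 (regulatory) in EcR-DN, and 0.533 (core) and 0.419 (regulatory) in Control. As shares of the library total the ratios were 1.17 and 1.24 in EcR-DN, and 0.612 and 0.480 in Control.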

How the results depend on the processing

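The fold changes named kept their direction under the alternatives run, except that of Rpn2 at 0 h against L3, which ranged from -0.35 without 0 h replicate 1 to 0.23 without 0 h replicate 3. Counts of subunits past the test moved by more than 1.5 times in these cases. With a pseudocount of 8, 18 h against 6 h had 1. With quantile normalization, 0 h against L3 had 1, adult γ against non-mushroom-body neurons 2, EcR-DN against Control at 6 h 0, E75 RNAi against Control 1 at 6 h and 1 at 12 h, and E75 RNAi against Sox14 RNAi at 6 h 3. With robust variances and no trend, EcR-DN against Control at 6 h had 0, E75 RNAi against Control at 6 h 0, the EcR-DN difference of the 0 h to 6 h step 11, and EcR-DN against E75 RNAi at 6 h 2.

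In fits of the compared groups alone, which have fewer libraries to estimate the spread, 0 h against L3 had 10, 18 h against 6 h 1, adult γ against αβ 0, adult γ against non-mushroom-body neurons 1, astrocyte-like cells against neurons 7, Control 6 h against 0 h 8, EcR-DN against Control 13 at L3 and 0 at 6 h, E75 RNAi against Control at 6 h 1, EcR-DN against E75 RNAi 1 at 6 h and 14 at 0 h, and EcR-DN against Sox14 RNAi at 0 h 3. Without the astrocyte-like libraries, 0 h against L3 had 8, 18 h against 6 h 3, 30 h against 18 h 2, adult γ against αβ 3 and against non-mushroom-body neurons 1. Without the Sox14 RNAi libraries that stand apart, E75 RNAi against Control at 12 h had 1 and Control 0 h against L3 had 1. As shares of the library total, the regulatory sum was 0.448 at 6 h over 0 h, 0.434 in adults over 30 h and 0.480 in Control at 6 h over 0 h. The cause was not tested.

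With 1 library left out, the lowest and highest counts were 0 and 2 for 0 h against L3, 21 and 27 for 6 h against 0 h, 0 and 1 for 18 h against 6 h, 18 and 27 for adult against 30 h, 31 and 32 for adult against L3 and for the F test, 0 and 2 for γ against αβ, 0 and 1 for γ against non-mushroom-body neurons, and 11 and 17 for astrocyte-like cells. They were 16 and 24 for Control 6 h against 0 h. For EcR-DN against Control they were 12 and 20 at L3, 25 and 30 at 0 h, 0 and 1 at 6 h and 12 h, and 8 and 19 for the difference of the step. For E75 RNAi they were 0 and 2 at 0 h, 0 and 1 at 6 h and 0 and 2 at 12 h, and for Sox14 RNAi 0 and 1 at 0 h and 6 h. Between perturbations they were 0 and 2, 3 and 5 and 3 and 6 at 6 h (EcR-DN against E75 RNAi, EcR-DN against Sox14 RNAi, E75 RNAi against Sox14 RNAi) and 17 and 28, and 13 and 22, at 0 h (EcR-DN against E75 RNAi, EcR-DN against Sox14 RNAi). All other comparisons stayed at 0.

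Same-numbered libraries did not deviate together (correlations of deviations -0.062 to 0.064 over 30 same-numbered library pairs in development and -0.047 to 0.070 over 45 in the perturbations), so the numbers were not taken as pairs. With the replicate block, EcR-DN against Control at 6 h had 0, and no other count moved by more than 1.5 times.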

Other observations

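Some genes of the pathway list differed between adult cell types. The transcription factor cnc had 1231, 1831, 1299 and 1387 normalized reads in astrocyte-like cells, against 129 to 275 in the 12 adult neuron libraries (log2 fold change 2.89 ± 0.20 SE). Ubi-p63E, a polyubiquitin gene, had 1655, 2766, 1592 and 1208 in astrocyte-like cells, against 242 to 514 in neurons (2.21). Neither gene overlapped between the groups. Ubi-p5E, the other polyubiquitin gene, had 1086, 1033, 1183 and 1127 in adult γ neurons, against 2437, 2179, 2443 and 2743 in adult αβ neurons (-1.14), with no overlap. Pomp, the assembly chaperone of the core particle, had 253, 250, 188 and 225 in adult γ neurons, against 96, 115, 64 and 166 in adult αβ neurons (1.12).

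At 6 h, Ubi-p5E had 6140, 5170 and 4919 normalized reads in E75 RNAi, against 1602 and 1186 in Control (1.97 ± 0.21), while the summed core subunits overlapped between E75 RNAi and Control, with 6100, 6247 and 5550 in E75 RNAi and 6467 and 5653 in Control. At 0 h, cnc had 4140 and 3893 in E75 RNAi, against 1019, 1446 and 1626 in Control (1.58). No explanation was tested for these values.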
